A study of Mus musculus with 10 samples.

Results

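Striated muscle genes were followed on the arrays of distal colorectal tissue from mice with and without Pdgfc, taken with or without prior local irradiation. The set held 40 genes of the sarcomere, of excitation-contraction coupling and of muscle energy supply, chosen by name, and each was read from its brightest probe set. Of the 40 genes, 39 had a probe set that the platform annotation assigns to a single gene (Xirp2 had none here), out of 18193 genes measured. All mice were C57BL/6J. The 4 groups were Pdgfc+/+ mice without treatment (wild type unirradiated, n = 2), Pdgfc-/- mice without treatment (knockout unirradiated, n = 2), Pdgfc+/+ mice after irradiation (n = 3) and Pdgfc-/- mice after irradiation (n = 3). Irradiated mice had received 25 Gy of local γ-rays at 2.14 Gy/min under anaesthesia, and the tissue was taken 8 weeks later, about 1 cm above the anus. Pdgfc encodes a platelet-derived growth factor, a secreted ligand of mesenchymal cells. Each array held 1 sample that the labels call a biological replicate. The labels do not give the age of the mice, the deleted part of the gene or whether it is missing in all cells.

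Striated muscle contracts when thick filaments of myosin pull on thin filaments of actin within the sarcomere. Voltage sensors in the membrane open calcium channels of the sarcoplasmic reticulum, and calcium bound to troponin frees the actin filament for myosin. Fast and slow fibres carry different isoforms of myosin and troponin. The wall of the colon is built from smooth muscle, which uses other isoforms, whereas the external anal sphincter and the pelvic floor around the rectum are striated. In bulk RNA such as this, fewer fibres in a piece of tissue and less RNA per fibre cannot be told apart.

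The colonic label was checked against absorptive colonocyte markers, whose 12 measured genes averaged 13.10 to 13.55 on the unirradiated arrays and 11.42 to 12.49 on the irradiated ones (log2 signal). Pdgfc lay at 7.01 to 7.50 in unirradiated wild type and at 5.62 to 6.42 in unirradiated knockout. After irradiation it lay at 8.56 to 8.75 and at 6.26 to 7.15. Array medians were 6.64 to 7.18. The Gapdh control signal at the 3′ end minus that at the 5′ end was -0.54 to -0.35 on the irradiated arrays and -0.32 to 0.02 on the others (log2 units), and its part in the results was not tested. Sex-linked transcripts (Xist, Uty, Kdm5d and Eif2s3y) gave a female pattern on the 3 irradiated wild-type arrays and on irradiated knockout replicate 1, and a male one on the other 6 arrays. In wild type, sex and irradiation cannot be told apart. Sex pattern is also unbalanced between the irradiated genotypes, and so in their comparison and in the interaction. Irradiated wild-type replicate 3 stood apart from its group in the striated muscle genes, so the tests are given with and without it. As it was picked by these genes' own values, leaving it out narrows their spread, and calls without it are descriptive. With 2 or 3 arrays a group, their number limits the precision.

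Skeletal muscle promoters are known for E-boxes, the sites of MyoD-family factors, for MEF2 elements and for CArG boxes, the sites of serum response factor. RefSeq windows (GRCm38.p6) from 250 bases upstream up to the gene start were found for 28 of the 40 genes, with 33 windows in all. The E-box CAGCTG occurred in 14 of these windows (42.4%), against 13.0% of all 32851 windows. A MEF2 element occurred in 15.2% against 2.92%, and a CArG box in 9.09% against 1.47%. These counts are on both strands; overlaps between motifs were not removed, and some genes contribute several windows. A match describes the letters only. Windows are printed for Acta1, Ckm, Ttn and Myh2, which were high on most irradiated arrays, and for Tnni1 and Eno3, which were not raised there. Each runs 5′ to 3′ on the strand of the gene, with E-box CAGCTG, CArG or MEF2 matches in capitals.
Acta1 (chr8:123894776-123895025, minus strand): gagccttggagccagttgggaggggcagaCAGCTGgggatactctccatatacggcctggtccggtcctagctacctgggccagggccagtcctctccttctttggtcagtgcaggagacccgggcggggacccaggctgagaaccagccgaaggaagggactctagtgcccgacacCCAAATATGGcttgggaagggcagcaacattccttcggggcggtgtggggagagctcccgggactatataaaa
Ckm (chr7:19410844-19411093, plus strand): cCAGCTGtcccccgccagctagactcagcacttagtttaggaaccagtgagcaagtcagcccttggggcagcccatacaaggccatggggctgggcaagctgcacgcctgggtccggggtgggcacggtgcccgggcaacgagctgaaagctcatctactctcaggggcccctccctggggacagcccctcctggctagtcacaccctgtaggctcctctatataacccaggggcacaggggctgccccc
Ttn (chr2:76982548-76982797, minus strand): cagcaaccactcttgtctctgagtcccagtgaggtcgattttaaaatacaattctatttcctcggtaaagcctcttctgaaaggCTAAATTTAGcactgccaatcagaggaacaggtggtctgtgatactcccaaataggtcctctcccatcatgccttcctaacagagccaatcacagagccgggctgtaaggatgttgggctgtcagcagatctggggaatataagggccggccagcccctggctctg
Tnni1 (chr1:135799171-135799420, plus strand): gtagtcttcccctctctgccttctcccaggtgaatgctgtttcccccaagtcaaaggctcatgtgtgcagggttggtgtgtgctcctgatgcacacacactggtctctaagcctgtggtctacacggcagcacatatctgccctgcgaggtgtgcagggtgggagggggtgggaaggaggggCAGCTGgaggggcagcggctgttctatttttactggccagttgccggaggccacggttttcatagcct
Myh2 (chr11:67170777-67171026, plus strand): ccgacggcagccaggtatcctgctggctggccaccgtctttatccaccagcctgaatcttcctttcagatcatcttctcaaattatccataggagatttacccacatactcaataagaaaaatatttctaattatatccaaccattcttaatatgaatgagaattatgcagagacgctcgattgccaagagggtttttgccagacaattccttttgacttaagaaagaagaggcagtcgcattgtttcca
Eno3 (chr11:70656926-70657175, plus strand): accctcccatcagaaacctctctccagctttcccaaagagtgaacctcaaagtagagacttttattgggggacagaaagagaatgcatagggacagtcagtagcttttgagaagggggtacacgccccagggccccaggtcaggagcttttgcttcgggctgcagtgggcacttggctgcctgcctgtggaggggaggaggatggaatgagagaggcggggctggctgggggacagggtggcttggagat
The Acta1 window held an E-box 221 bases and a CArG box 73 bases before the start. The Tnni1 window held the E-box as well, 68 bases before the start. The Myh2 and Eno3 windows held none of these motifs.

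The striated muscle genes formed 3 levels across the arrays. They were lowest in unirradiated wild type and in irradiated wild-type replicate 3, intermediate in unirradiated knockout, and highest in irradiated knockout and in irradiated wild-type replicates 1 and 2. The mean log2 signal of the 39 genes was 5.35 and 5.74 in unirradiated wild type and 8.51 and 8.13 in unirradiated knockout. It was 10.79, 9.23 and 5.60 in replicates 1, 2 and 3 of irradiated wild type, and 10.73, 9.96 and 11.33 in those of irradiated knockout. Of the 39 genes, 9 and 10 lay above the array median in unirradiated wild type, 32 and 29 in unirradiated knockout, 39, 35 and 9 in irradiated wild type, and 37, 37 and 38 in irradiated knockout. The map of all genes by array shows these blocks.

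**Figure D1:**
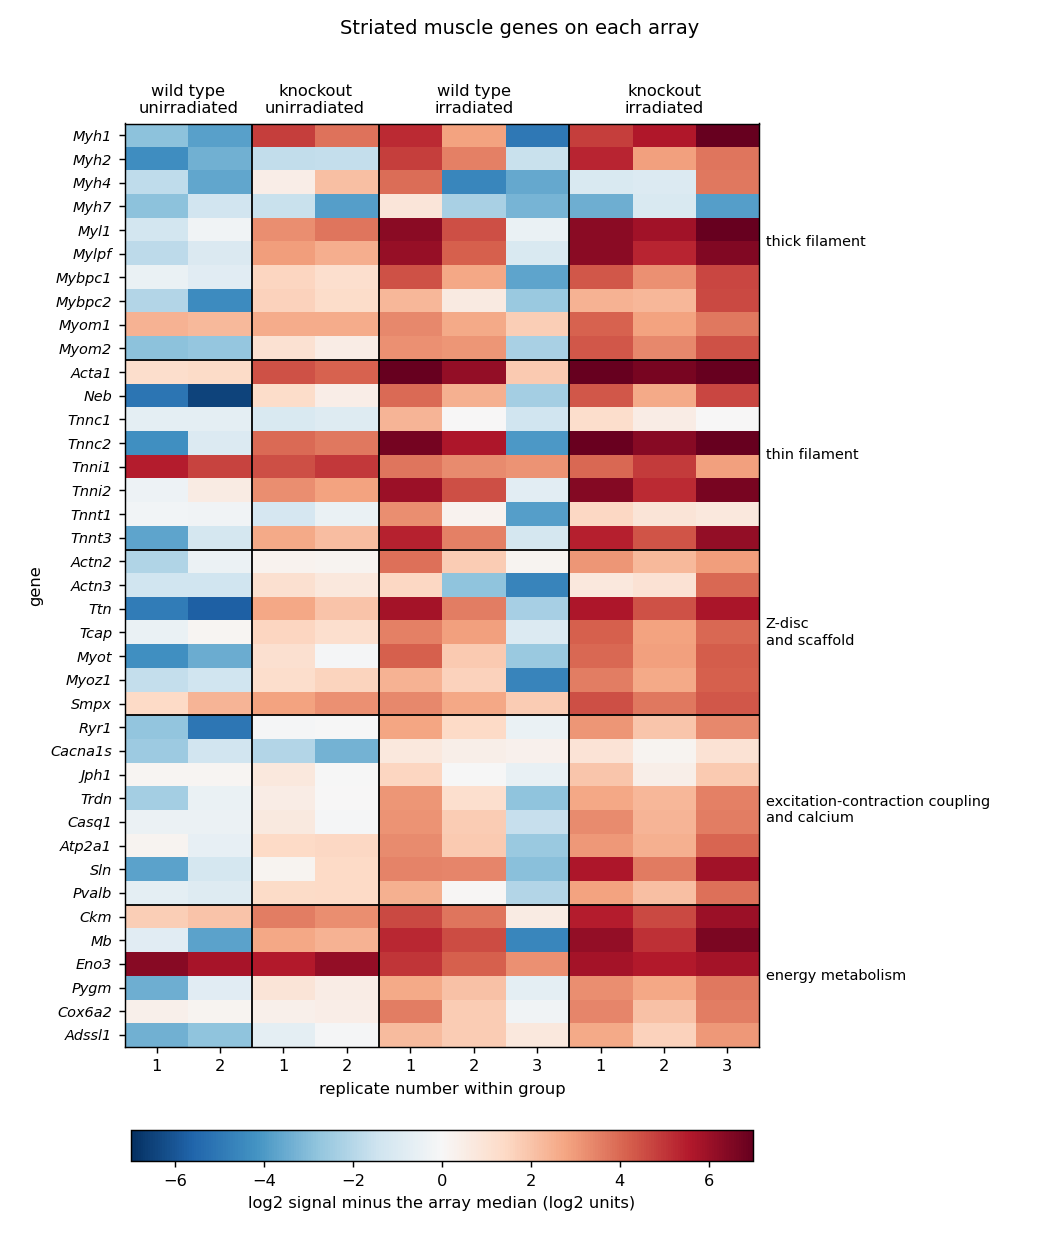
Log2 signal minus the array median for the 39 measured striated muscle genes (rows, grouped by role) on the 10 arrays (columns, by group and replicate number); red is above and blue below the array median. Most rows are blue or pale in unirradiated wild type and in irradiated wild-type replicate 3, pale red in unirradiated knockout and deep red on the other irradiated arrays, while Tnni1 and Eno3 are red throughout.

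The genes moved over a wide range. Between their lowest and highest array the 38 tested genes spanned a median of 7.60 log2 units, from 2.12 for Tnni1 to 12.19 for Myh1, where the median of all 12568 tested genes was 1.09. Myh7 did not pass the filter (brighter than the array median on 2 or more arrays) and was not tested. In 37 of 38 genes irradiated wild-type replicate 3 lay below replicates 1 and 2, an order found in 28.4% of all genes tested. In 34 of 38 it lay below both unirradiated knockout arrays (42.4% of all genes), in 18 below both unirradiated wild-type arrays (33.7%), and in 14 above both (44%). As values below the array median are imprecise in these signals, the sizes of differences from unirradiated wild type are uncertain for most genes.

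Among thick filament genes, the myosin heavy chains of the fibre types followed different courses. Myh1, the heavy chain of fast 2X fibres, lay at 3.77 and 2.98 in unirradiated wild type and at 11.82 and 10.62 in unirradiated knockout. In irradiated wild type it was 12.23, 9.90 and 2.04, and in irradiated knockout 11.80, 12.54 and 14.23. Unirradiated knockout thus overlapped irradiated knockout in Myh1. Myh2, the heavy chain of fast 2A fibres, lay at 2.29 and 3.46 in unirradiated wild type and at 5.29 and 5.15 in unirradiated knockout, below the array median on all 4 arrays. It was 11.87, 10.65 and 5.52 in irradiated wild type and 12.30, 9.79 and 10.93 in irradiated knockout, so that all 3 irradiated arrays of each genotype lay above the unirradiated ones. Myh4, of fast 2B fibres, was highest on single arrays of the irradiated groups: it was 7.49 and 8.91 in unirradiated knockout, 10.94 in irradiated wild-type replicate 1 and 10.87 in irradiated knockout replicate 3, against 2.54 to 5.98 on the other 6 arrays. Myh7, of slow fibres, lay at 2.94 to 7.84 and above the array median only in irradiated wild-type replicate 1. The Myh genes are close paralogs, so their probe sets may share signal.

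The light chains Myl1 and Mylpf and the binding proteins Mybpc1 and Mybpc2 followed the common course. Mylpf, the fast regulatory light chain, was 4.81 and 5.76 in unirradiated wild type, 9.91 and 9.34 in unirradiated knockout, 13.08, 11.26 and 6.01 in irradiated wild type and 13.29, 12.27 and 13.68 in irradiated knockout. Myom2, an M-band protein that ties thick filaments together, rose in irradiated wild type from 3.75 and 4.09 to 10.21, 10.17 and 4.81.

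In the thin filament, the fast troponin genes Tnnc2, Tnni2 and Tnnt3 shared the pattern and the slow ones did so in part or not. Acta1, skeletal muscle actin, lay at 7.87 and 8.11 in unirradiated wild type, 11.45 and 10.95 in unirradiated knockout, 14.28, 13.25 and 8.90 in irradiated wild type and 14.07, 13.57 and 14.22 in irradiated knockout. Neb, the giant ruler of the thin filament, lay at 1.5 and 0.29, 8.27 and 7.26, 10.97, 9.57 and 4.71, and 11.33, 9.61 and 11.84 in the same order. For both genes, unirradiated knockout lay between unirradiated wild type and irradiated knockout with no overlap. Tnnt3, fast troponin T, was 2.95 and 5.55 in unirradiated wild type, 9.67 and 8.94 in unirradiated knockout, 12.39, 10.60 and 5.84 in irradiated wild type and 12.39, 11.36 and 13.31 in irradiated knockout. The slow troponins Tnnc1 and Tnnt1 showed no such step in unirradiated knockout: Tnnc1 was 5.96 and 5.92 there against 5.95 and 6.09 in wild type. Tnnt1 was 5.84 and 6.36 there against 6.46 and 6.54. The values of both genes on the unirradiated arrays lay below the array median and are imprecise. Both reached their highest value, 9.40 and 10.24, in irradiated wild-type replicate 1, the array on which Myh7 was highest too.

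Tnni1, slow troponin I, ran the other way. It lay at 12.15 and 11.52 in unirradiated wild type and 11.54 and 11.75 in unirradiated knockout, and at 10.76, 10.40 and 10.24 in irradiated wild type. In irradiated knockout it was 10.99, 11.82 and 10.03. Eno3, the muscle form of enolase, was bright on every array as well, at 10.26 to 13.01. In all, 6 of the 39 genes lay above the array median on all 10 arrays: Tnni1, Eno3, Acta1, Ckm, Myom1 and Smpx.

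Among Z-disc and scaffold genes, Ttn, titin, lay at 1.76 and 1.06 in unirradiated wild type and at 9.71 and 8.81 in unirradiated knockout. In irradiated wild type it was 12.83, 10.67 and 4.76, and in irradiated knockout 12.64, 11.37 and 12.87. Actn2, a Z-disc actinin, rose in irradiated wild type from 4.54 and 6.36 to 10.88, 8.89 and 7.25. Myot, myotilin, another Z-disc protein, went from 2.32 and 3.31 to 11.20, 8.92 and 4.49 in the same comparison. Actn3, the actinin of fast fibres, resembled Myh4: it was 8.11 and 7.53 in unirradiated knockout and 11.18 in irradiated knockout replicate 3, but 4.28 and 2.43 in irradiated wild-type replicates 2 and 3. Tcap, the titin cap, and Myoz1, a calcineurin-binding Z-disc protein, kept the common order over ranges of 6.12 to 11.19 and 2.47 to 11.36.

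Of the calcium genes, Ryr1, the calcium release channel, lay at 3.88 and 1.75 in unirradiated wild type, 6.95 and 6.77 in unirradiated knockout, 9.78, 8.51 and 6.61 in irradiated wild type and 10.04, 8.90 and 10.52 in irradiated knockout. Cacna1s, the voltage sensor that opens it, differed from the common pattern. It lay at 4.07 and 5.48 in unirradiated wild type and 4.98 and 3.52 in unirradiated knockout, and at 7.73, 7.53 and 7.39 in irradiated wild type and 7.91, 7.13 and 8.21 in irradiated knockout. Its irradiated arrays all lay above the unirradiated ones, replicate 3 of wild type included. Pvalb, the calcium buffer of fast fibres, was 5.94 and 5.89 in unirradiated wild type, 8.34 and 8.21 in unirradiated knockout, 9.49, 7.16 and 5.00 in irradiated wild type and 9.79, 9.03 and 11.06 in irradiated knockout. Sln, sarcolipin, an inhibitor of the calcium pump, reached 12.62, 10.56 and 13.06 in irradiated knockout, above the 10.49, 10.54 and 4.17 of irradiated wild type. The triad proteins Trdn and Jph1 ranged from 4.24 to 10.69 and from 6.56 to 9.04, the calcium store protein Casq1 from 5.47 to 10.75 and the calcium pump Atp2a1 from 4.49 to 11.24. Each of these 4 genes was lowest in irradiated wild-type replicate 3.

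In energy metabolism, Ckm, muscle creatine kinase, lay at 8.34 and 8.77 in unirradiated wild type, 10.60 and 10.06 in unirradiated knockout, 11.63, 10.87 and 7.65 in irradiated wild type and 12.45, 11.57 and 13.18 in irradiated knockout. Mb, myoglobin, the oxygen store of the fibre, was 5.87 and 3.06, 9.74 and 9.26, 12.26, 11.67 and 2.48, and 13.14, 12.05 and 13.77 in these groups. Adssl1, an adenylosuccinate synthase of muscle, was 3.28 and 3.96 in unirradiated wild type and 6.35 and 6.71 in unirradiated knockout. It lay at 9.21, 8.89 and 7.79 in irradiated wild type and at 9.60, 8.57 and 10.21 in irradiated knockout, with no overlap between irradiated and unirradiated arrays. Pygm, the muscle glycogen phosphorylase, was 3.21 and 6.01 in unirradiated wild type and 9.64, 9.13 and 6.37 after irradiation. Cox6a2, a muscle subunit of cytochrome c oxidase, was 7.0 and 6.98 in unirradiated wild type and 7.38 and 7.27 in unirradiated knockout, against 9.01 to 10.74 in irradiated knockout.

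**Figure D2:**
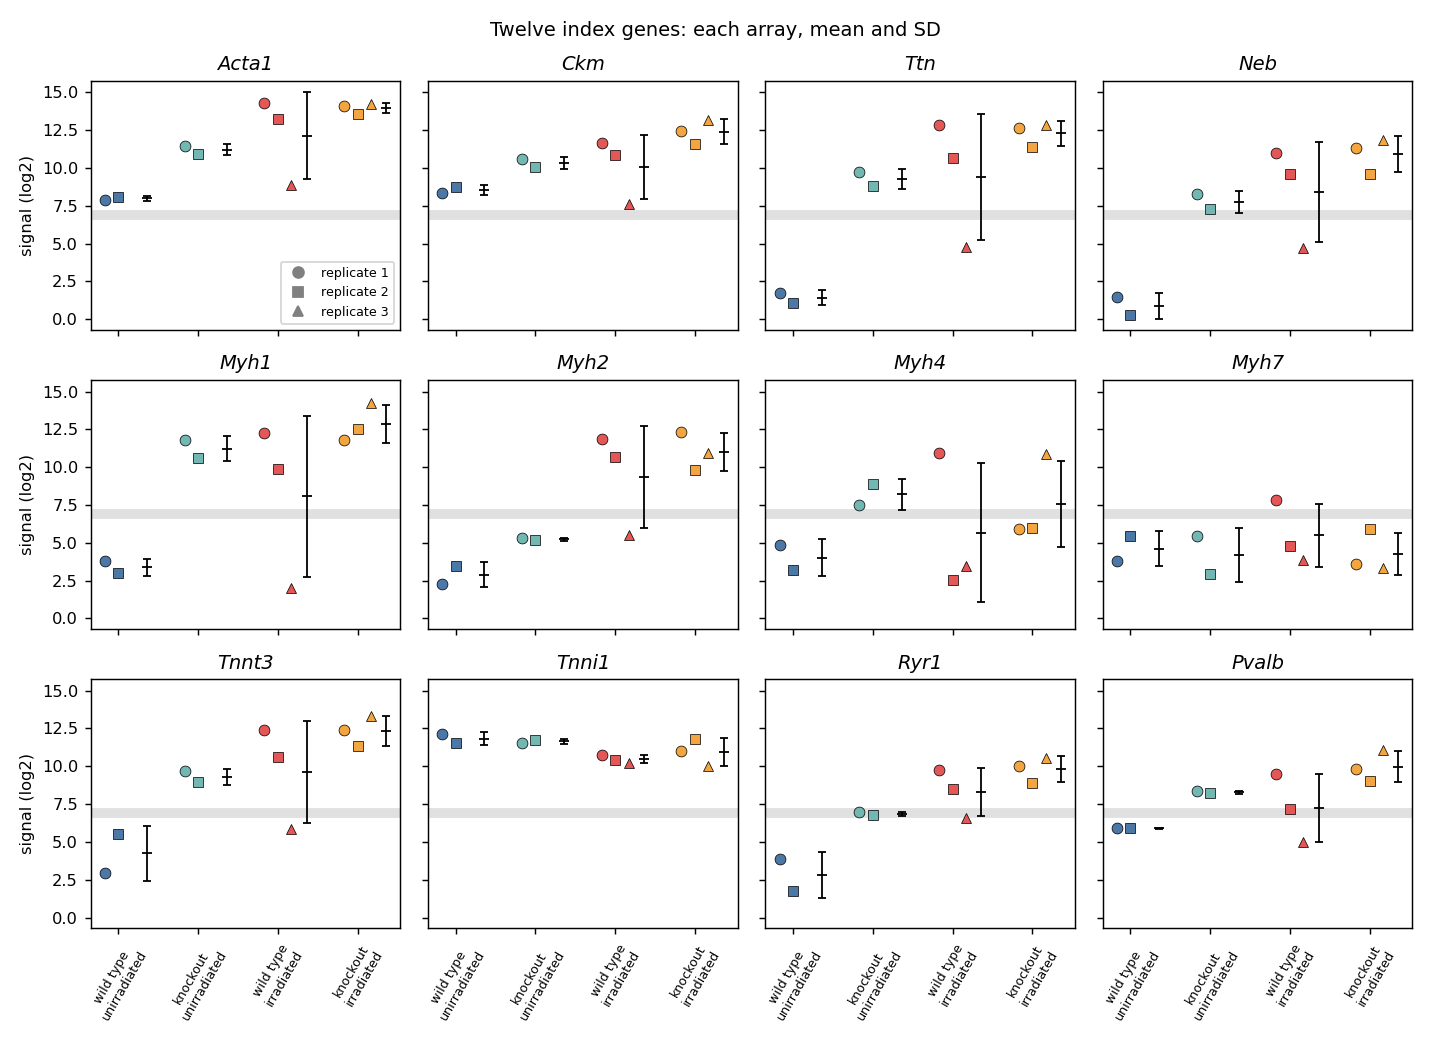
Log2 signal of 12 striated muscle genes, 1 panel each, in the 4 groups; symbols are arrays (shape gives the replicate number), the black bar is the group mean with its SD, and the grey band spans the array medians (6.64 to 7.18). The triangle of irradiated wild-type replicate 3 sits near unirradiated wild type in Acta1, Ckm, Myh1, Myh4 and Pvalb, while Tnni1 lies between 10.03 and 12.15 on every array.

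The first comparison asked how irradiation changed these genes in wild type. Of the 38 tested genes 12 rose and 2 fell, against a background of 15.8% higher and 8.34% lower among all genes tested (limma, Benjamini-Hochberg adjusted p under 0.05). The median log2 difference was 3.13, against 0.07 over all genes. The 12 that rose came from every role: Myh2 and Myom2 of the thick filament, Acta1, Neb and Tnnt3 of the thin filament, Actn2, Ttn and Myot of the Z-disc and scaffold, Ryr1 and Cacna1s of calcium release, and Pygm and Adssl1 of energy metabolism. Ttn rose by 8.01 ± 1.79 log2 units (SE, adjusted p = 0.012) and Neb by 7.52 ± 1.49 (adjusted p = 0.0075). Ryr1 rose by 5.49 ± 0.89 (adjusted p = 0.0029), Adssl1 by 5.01 ± 0.53 (adjusted p = 4.9e-04) and Acta1 by 4.15 ± 1.20 (adjusted p = 0.033). By the other Ryr1 probe set, irradiated wild-type replicate 3 lay at 0.11, below unirradiated wild type at 2.31 and 1.82. The groups thus overlapped by that probe set. The genes that fell were Eno3, with a log2 difference of -1.59 ± 0.41 (adjusted p = 0.022), and Tnni1, with -1.37 ± 0.42 (adjusted p = 0.042). Of the other fast isoforms, Myh1, Myh4, Tnnc2 and Tnni2 did not pass with all 10 arrays (Myh1 differed by 4.69 ± 2.30, adjusted p = 0.17). In 14 genes all 3 irradiated arrays lay above both unirradiated ones (30.8% of all genes did so), and in 2 all lay below (22.8%).

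Without irradiated wild-type replicate 3, 30 of the 38 genes rose and 1 fell (background 13% higher, 5.55% lower), and the median log2 difference was 4.48. Both remaining irradiated arrays then lay above the unirradiated ones in 34 genes, against 35% of all genes. Eno3 was still lower, while Tnni1 no longer passed (adjusted p = 0.093). Ttn then rose by 10.34 ± 0.70 (adjusted p = 1.6e-04). The count moved with other arrays too: it was 8 without irradiated wild-type replicate 1 and 7 without irradiated wild-type replicate 2. The share of all genes in those 2 refits is not given, so these counts have no background. With the sex pattern as a covariate 0 of the 38 genes and 16 of all genes passed. Sex pattern varies within a group only in irradiated knockout, through replicate 1. That fit therefore rests on this array and cannot tell sex from irradiation in wild type.

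In knockout mice, 4 genes rose after irradiation and 0 fell (limma, background 14% higher and 9.5% lower), with 14 genes at an unadjusted p under 0.05 in either direction, against 37.7% of all genes. The median log2 difference was 2.72, against 0.01 over all genes. Cacna1s rose by 3.50 ± 0.59 (SE, adjusted p = 0.0035), Adssl1 by 2.93 ± 0.53 (adjusted p = 0.0048), Myh2 by 5.79 ± 1.52 (adjusted p = 0.023) and Ryr1 by 2.96 ± 0.89 (adjusted p = 0.039). All 4 genes lay below the array median on both unirradiated knockout arrays and passed the filter only through irradiated arrays. The sizes of these rises are therefore uncertain. In 32 genes (84.2%) all 3 irradiated arrays lay above both unirradiated ones, against 28.4% of all genes. The exceptions were Myh1, Myh4, Actn3, Jph1, Eno3 and Tnni1. Without irradiated wild-type replicate 3, which enters this comparison only through the shared estimate of the spread, 27 genes rose (background 13.8% higher), and 0 fell (8.1%). In refits whose share of all genes is not given, the count was 8 without irradiated wild-type replicate 1. It was 8 without irradiated knockout replicate 2 and 2 without irradiated knockout replicate 1 or 3. Leaving out replicate 1 makes this comparison one of male-pattern arrays only, and Cacna1s (3.41, adjusted p = 0.016) and Adssl1 (2.86, adjusted p = 0.019) still passed there.

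Without irradiation, the knockout was compared with the wild type on male-pattern arrays throughout. With all 10 arrays in the fit, 1 gene rose, Adssl1, by 2.91 ± 0.58 log2 units (SE, limma adjusted p = 0.049; background 0.422%), and 0 fell (background 0.804%), with 15 genes at an unadjusted p under 0.05, against 16.6% of all genes. Adssl1 lay below the array median on every unirradiated array and passed the filter only through the irradiated ones, so this difference compares imprecise values. The median log2 difference was 2.71, against 0.07 over all genes. In 32 of the 38 genes both knockout arrays lay above both wild-type arrays, against 28.9% of all genes. Ttn differed by 7.85 ± 1.96 (adjusted p = 0.091), Neb by 6.87 ± 1.64 (adjusted p = 0.083) and Ryr1 by 4.04 ± 0.98 (adjusted p = 0.087). Ryr1, like Adssl1, lay below the array median on every unirradiated array and passed the filter only through irradiated ones. Groups overlapped in Cacna1s, Eno3, Jph1, Tnnc1 and Tnni1, and Tnnt1 was lower on both knockout arrays (18.9% of all genes were so). In 29 of 38 genes both knockout arrays lay above unirradiated wild type and below every irradiated knockout array, an order found in 5.12% of all genes.

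Without irradiated wild-type replicate 3, 16 genes were higher in unirradiated knockout than in wild type (background 0.493%) and 0 lower (0.732%). That array enters this comparison only through the shared estimate of the spread, and it was picked by these genes' own values. The 16 genes included Ttn (adjusted p = 9.9e-04), Acta1 (adjusted p = 0.0031), Myh1 and Neb (both adjusted p = 0.0035) and Mb (adjusted p = 0.018). Adssl1 and Ryr1 were among them too, although both lay below the array median on every unirradiated array. A fit of the unirradiated groups alone, with 2 arrays each, called 20 genes higher (background 0.637%), among them Ckm (adjusted p = 0.024) and Pvalb (adjusted p = 0.018) but not Adssl1. By its other probe set Ckm differed less, at 7.27 and 7.18 in unirradiated wild type and 7.64 and 7.56 in unirradiated knockout. Leaving out any other irradiated array gave 0 genes, except irradiated knockout replicate 2, which gave 1. The share of all genes in those refits is not given.

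By fibre type, the 6 fast isoforms (Myh1, Myh2, Myh4, Tnnc2, Tnni2 and Tnnt3) had a median log2 difference of 4.62 between unirradiated knockout and wild type. In all 6 the knockout arrays lay above the wild-type ones, against 28.9% of all genes. The 3 tested slow isoforms (Tnnc1, Tnni1 and Tnnt1) had a median of -0.19, and 0 of 3 were positive. After irradiation of the knockout the medians were 3.07 and 1.69. Tnnc1 and Tnnt1, like Myh2, lay below the array median on every unirradiated array, and Tnni1 was bright on all arrays. These values therefore do not settle whether the fibre types differed between the unirradiated genotypes. By role, the median genotype difference without irradiation was 4.18 for the thick filament, 3.17 for the thin filament, 2.51 for the Z-disc and scaffold, 1.83 for calcium handling and 2.34 for energy metabolism.

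After irradiation, 0 of the 38 genes differed between knockout and wild type (limma, background 0%), with 10 at an unadjusted p under 0.05, against 3.98% of all genes. All 38 differences were positive, with a median of 2.33, against 0.00 over all genes. These groups differed in sex pattern too, as every wild-type array but only replicate 1 of knockout had the female one. In 6 genes, Eno3, Myom2, Myoz1, Pygm, Sln and Smpx, all knockout arrays lay above all wild-type ones (4.38% of all genes). Eno3, at 12.81, 12.50 and 12.98 against 12.03, 11.29 and 10.26, differed by 1.57 ± 0.37 (adjusted p = 1). Without irradiated wild-type replicate 3 the median was 0.68, 34 of 38 were positive and again 0 passed (background 0.0159%), with 6 genes whose groups did not overlap (7.18%).

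The difference between the irradiation effects of the 2 genotypes passed in 0 genes (limma, background 0.207%), with 2 at an unadjusted p under 0.05, fewer than the 10.4% of all genes, and a median of -0.09. Without irradiated wild-type replicate 3, Ttn passed, with -7.31 ± 0.95 (SE, adjusted p = 0.022; background 0.175% in either direction and 0.0318% lower), and the median was -1.85. The size of this difference for Ttn depended on the probe set. Without that array, irradiated minus unirradiated means were 10.34 in wild type and 3.03 in knockout by the brightest probe set, 9.25 and 3.6 by the third and 7.15 and 2.24 by the fourth. By the second, which was brighter in unirradiated wild type (mean 6.03 against 1.41), they were 3.21 and 2.85, and the unirradiated genotypes differed by 0.68 rather than 7.85.

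**Figure D3:**
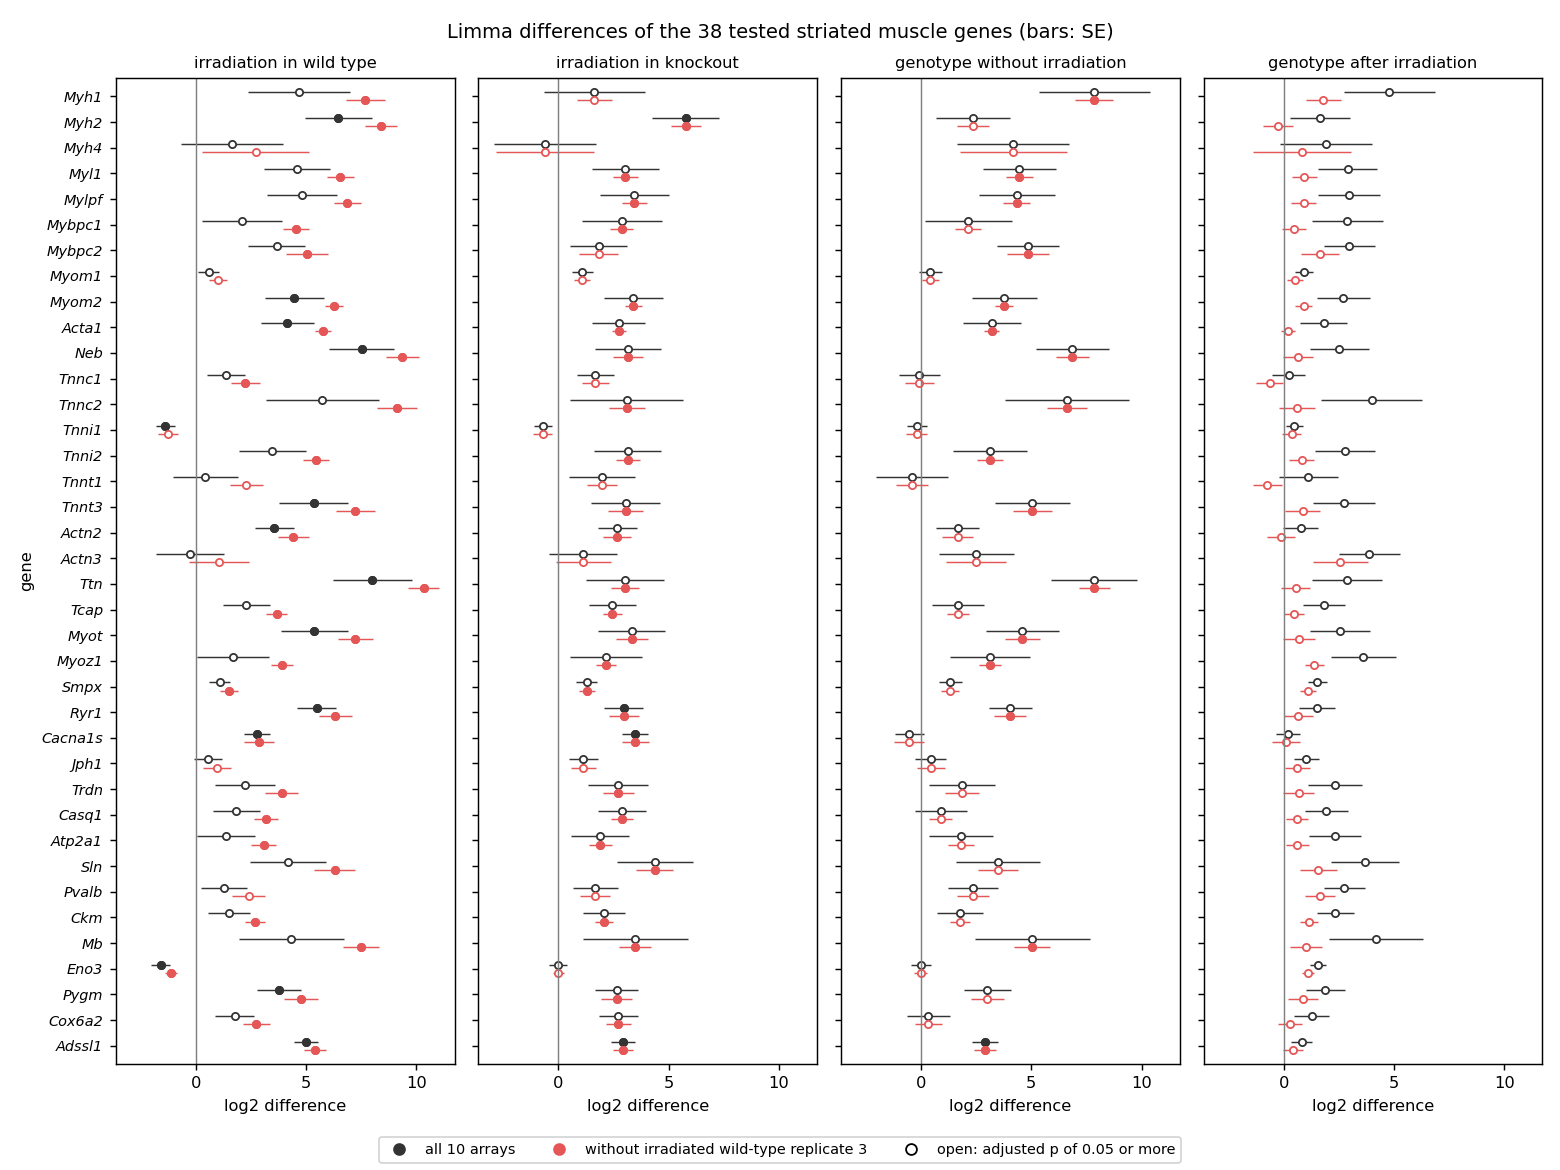
Log2 differences of the 38 tested genes (dots, bars are SE) in 4 comparisons, with all 10 arrays (dark) and without irradiated wild-type replicate 3 (red); filled dots have an adjusted p under 0.05. Leaving out that array fills 30 of 38 dots on the higher side for irradiation in wild type and 16 for genotype without irradiation, and none for genotype after irradiation.

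Markers of other tissues of the anorectal region moved with some of these results. The 15 squamous epithelium markers averaged 5.52 and 6.27 in unirradiated wild type and 5.91 and 5.64 in unirradiated knockout, with 3 or 4 genes above the array median. On the irradiated arrays they averaged 9.40 to 12.33, with 13 to 15 genes above it. Of these 15 genes 10 rose with irradiation in wild type (limma, background 15.8%) and 14 in knockout (background 14%). Irradiated wild-type replicate 3 had 13 squamous markers above the array median, against 9 of the 39 striated genes. The 8 adipocyte markers averaged 6.74 and 6.59 in unirradiated wild type, 8.20 and 7.09 in unirradiated knockout and 8.72 to 11.54 after irradiation, with 10.42 in irradiated wild-type replicate 3. Between the unirradiated genotypes they had a median difference of 0.74. In 6 of 8 the knockout arrays lay above all wild-type arrays (28.9% of all genes), and 1, Car3, passed (background 0.422% higher). The part of either tissue in the irradiation results, and of adipocytes in the genotype result, was not tested. Between unirradiated knockout and wild type the squamous markers had a median difference of -0.23, with 0 of 15 passing. The 14 smooth muscle markers averaged 11.98 and 11.79 in unirradiated knockout against 11.46 and 11.58 in wild type. All 14 differences were positive, with a median of 0.36, and 0 passed. In 10 of the 14 (71.4%) both knockout arrays lay above both wild-type arrays, against 28.9% of all genes. The part of smooth muscle in the genotype result was not tested.

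**Figure D4:**
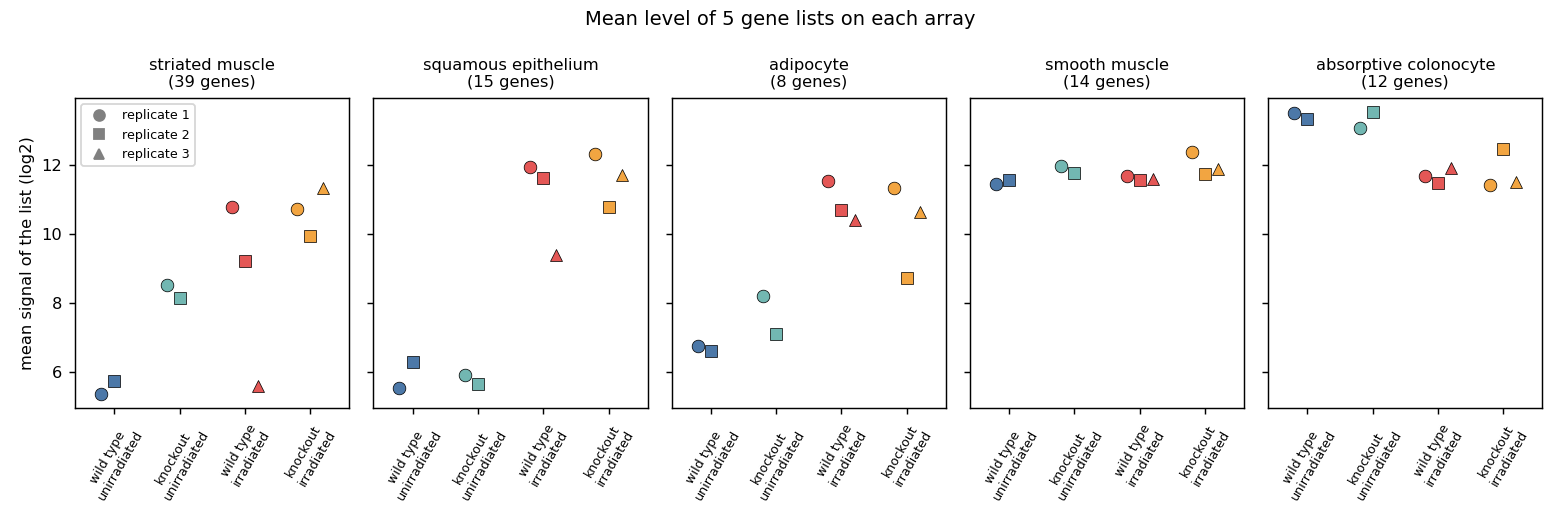
Mean log2 signal of 5 gene lists on each array, by group; each symbol is 1 array and its shape gives the replicate number. Irradiated wild-type replicate 3 (triangle) has a striated muscle mean of 5.60 beside a squamous mean of 9.40, and unirradiated knockout has striated means of 8.51 and 8.13 beside squamous means of 5.91 and 5.64.

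Other muscle genes were counted from lists by function, against the backgrounds of 15.8% higher in wild type and 14% in knockout. Of 20 other tested sarcomere and Z-disc genes, 5 rose with irradiation in wild type, 2 in knockout and 0 differed by genotype. The counts of the calcium and energy lists lay below these shares in both genotypes. Klhl41, a sarcomere protein, rose by 6.61 ± 1.19 in wild type (SE, limma adjusted p = 0.0047). Csrp3, a Z-disc protein typical of slow and cardiac fibres, rose by 5.84 ± 1.44 in knockout (adjusted p = 0.018). It lay at 6.12 and 2.96 in unirradiated knockout and at 5.42 and 5.75 in wild type, all below the array median. No intermediate step was seen in these imprecise values. Of 16 other calcium and excitation genes, Jsrp1 rose and Atp2a2 fell in wild type and Mss51 rose in knockout. Of 15 other energy genes, Ampd1, the muscle AMP deaminase, rose in both genotypes, by 4.32 ± 0.87 in wild type (adjusted p = 0.0078) and 4.36 ± 0.87 in knockout (adjusted p = 0.0075). Cox8b rose in wild type and Art1 in knockout. Of 7 tested myogenic factors, Mef2c and Eya4 rose in both genotypes and Tbx1 in knockout. Mef2c, which other cell types make as well, lay at 9.36 in irradiated wild-type replicate 3, near the 9.40 of replicate 2. Eya4 (6.78 and 6.76) and Tbx1 (7.27 and 7.26) did not drop in replicate 3 either. Myf6, named for contrast, did (1.68 and 7.36). Without that replicate 3, 13 of the 20 sarcomere and Z-disc genes rose in wild type (background 13%) and 11 in knockout (13.8%). Cmya5, Klhl41 and Myh8 were then higher in unirradiated knockout than in wild type (background 0.493%). In each genotype 4 of 16 calcium and excitation genes and 4 of 15 energy genes then rose, shares above the background. That array was picked by the values of the striated muscle genes, which several genes of these lists follow. The counts without it are therefore descriptive.

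The tested genes resembled each other across the 10 arrays: the median Pearson r over their 703 pairs was 0.86, and 441 pairs exceeded 0.8. These values describe arrays that share groups and tissue pieces and carry no test. Against the mean of the other genes of the set, Tnni1 (-0.39), Eno3 (0.25), Cacna1s (0.59) and Myh4 (0.61) were least alike. Outside the set, the genes most like its mean over the 10 arrays, of 12530 compared, were Pgam2, muscle phosphoglycerate mutase (0.994), Mlip (0.991), Cmya5 (0.983), Cox8b (0.981) and Myh8, the perinatal myosin (0.980). Ankrd23, Rpl3l, Srl, Krt2, Myl3, Tssk4, Acsl6, Chrna1, Egf and Tmod4 followed, at 0.952 to 0.979. Myh8 lay at 0.93 and 2.52 in unirradiated wild type, 9.60 and 8.15 in unirradiated knockout, 12.90, 11.87 and 0.29 in irradiated wild type and 13.53, 11.94 and 13.60 in irradiated knockout. Within the set, 14 genes had further probe sets, 27 in all, and 13 of the 16 brighter than the median on 2 or more arrays had an r above 0.8 with the brightest one.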

How the data were processed

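RNA of 10 distal colorectal samples was measured on Affymetrix arrays, 1 per sample. The signals are the authors' MAS5 output, per the submitters' processing notes, which name no version. Values as deposited were taken as log2 from their range (-4.24 to 15.79) and from an equal trimmed linear mean on every array. No detection calls were used, and values were not normalized further. Each gene was read from its brightest probe set with 1 gene in the platform annotation. Genes brighter than the array median on 2 or more arrays were tested (12568). The 4 group means were fitted together with limma 3.58.1 (R 4.3.3), leaving 6 residual degrees of freedom, with a trended variance prior and Benjamini-Hochberg adjustment at 0.05 over all genes tested. The fit was tested on simulated data. Per-array values are given for genes past the threshold and 12 index genes, plus others named for contrast after their values were seen. From each other list at most 4 genes were named, by smallest p, and the 15 genes most like the mean. Alternatives were quantile normalization, pseudocounts of 16 and 64, other filters, no trend, array weights, mean of probe sets, a replicate block, only the groups compared, a sex covariate, and leaving out each array. The genes and lists were chosen with earlier results of these data known. Promoter windows came from RefSeq.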

Additional observations from a re-analysis of the deposited data

How the results depend on the processing

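The counts of striated muscle genes past the threshold differed between alternatives. Apart from the shares given above, the share of all genes passing under each alternative is not given. Whether all genes moved along with the striated muscle genes therefore cannot be read from these counts. For irradiation in wild type (14 genes), a pseudocount of 64 gave 8, a fit of only the groups compared 7 and the sex pattern covariate 0, and leaving out 1 array gave 3 to 31. For irradiation in knockout (4 genes), a pseudocount of 64 gave 7, array weights 11, only the groups compared 29 and the sex covariate 2, and leaving out 1 array gave 2 to 27. For genotype without irradiation (1 gene), quantile normalization, pseudocounts of 16 and 64, no filter, no trend, array weights and the sex covariate each gave 0, only the groups compared gave 20, and leaving out 1 array gave 0 to 16. The interaction gave 0 to 1 when 1 array was left out. Genotype after irradiation gave 0 genes under every alternative run. Apart from fewer arrays or groups in a fit, the cause was not tested. No result changed sign while called. Replicate numbers did not pair the arrays: deviations of same-numbered arrays correlated at -0.202 to 0.156. With the replicate block 13 genes passed for irradiation in wild type, 4 in knockout, 0 for genotype without irradiation, 0 after irradiation and 0 for the interaction. Signals below the array median limit the size of differences from unirradiated wild type and, for some genes, from unirradiated knockout.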

Other observations

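Car3, a carbonic anhydrase made by adipocytes and slow muscle fibres, was higher in unirradiated knockout than in unirradiated wild type. It lay at 6.91 and 7.02 in unirradiated wild type and at 12.45 and 12.09 in unirradiated knockout, a rise of 5.31 ± 0.26 log2 units (SE, limma adjusted p = 2.8e-05). All irradiated arrays lay at 13.94 to 14.78, irradiated wild-type replicate 3 at 14.23 included. The irradiation effects of the genotypes differed by -5.33 ± 0.33 (adjusted p = 3.0e-04). Car3 was named after its values were seen. Of 5 tested cardiac genes, Myl4, an atrial and embryonic light chain, rose with irradiation in wild type by 2.24 ± 0.39 (adjusted p = 0.0042) and in knockout by 1.72 ± 0.39 (adjusted p = 0.014), and lay at 7.88 in irradiated wild-type replicate 3. It alone of the 5 passed in each genotype (20%, against backgrounds of 15.8% and 14% higher). The median difference of the 5 genes was -0.1 in wild type, with 3 negative, and 0.83 in knockout, with 1 negative.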
